A study of Homo sapiens with 10 samples.

Results

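The genes described here are 9 platelet and megakaryocyte genes: the integrin chains ITGA2B and ITGB3, the glycoprotein genes GP1BA, GP1BB and GP9, the adhesion genes VWF and SELP, and the chemokine genes PF4 and PPBP. They were chosen by name, and every probe set that the array's annotation assigns to one of them was taken. This gave 13 of the 12558 probe sets tested. Of these, 12 are assigned to 1 gene, and they cover 8 of the 9 genes. The remaining probe set is annotated to several genes, GP1BB among them, so GP1BB has no value of its own. The study hybridised RNA of a human chronic myeloid leukaemia (CML) cell line to Affymetrix arrays, 1 array for each sample. The resistant group held 5 arrays of a subline resistant to cyclophosphamide, an alkylating drug, and the sensitive group held 5 arrays of the line it was compared with. Both were grown in tissue culture medium, and the labels give no name of the line, passage, dose or way of selection. The resistant cells are therefore 1 subline. Whether the 5 samples of a group were separate cultures is not stated, and all p-values refer to the variation among these arrays, part or all of which may be technical.

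Megakaryocytes are the bone marrow cells that shed platelets, and they share a precursor with red cells. ITGA2B and ITGB3 encode the subunits of integrin alphaIIb beta3, the platelet receptor for fibrinogen. The alpha chain appears early in the lineage and reaches the surface only as a dimer with the beta chain. GP1BA, GP1BB and GP9 encode subunits of the receptor for von Willebrand factor, which VWF encodes. PF4, PPBP, VWF and SELP encode proteins of the platelet alpha granule and are known as genes of later megakaryocyte maturation. VWF and SELP are also made by endothelial cells. In CML the megakaryocyte lineage carries the BCR-ABL fusion, like the other myeloid lineages.

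Values are MAS5 signals, an intensity on a linear scale. Differences are resistant minus sensitive on the scale log2(signal + 114.8), tested with limma and adjusted by the Benjamini-Hochberg method over all 12558 probe sets, and a probe set is called at an adjusted p under 0.05. The offset makes differences of dim probe sets smaller than those of the signals. As a background, the 95th percentile of 32 control probe sets without a human target was taken on each array. This limit lay between 319.7 and 739.8 on resistant arrays and between 360.8 and 640.0 on sensitive arrays. Arrays of 1 group resembled each other over all probe sets, whose values are not independent, with a Pearson correlation of 0.927 to 0.957 among resistant arrays, 0.925 to 0.960 among sensitive arrays and 0.883 to 0.923 between the groups.

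ITGA2B rose in resistant cells. Its brighter probe set was above the background limit on all 10 arrays and was 10.6-fold higher on the offset scale, and the other was above it on all 5 resistant arrays and on 2 of the 5 sensitive arrays. Of the other 7 measured genes, 6 were above the background limit on no array. ITGB3, the remaining one, had 3 probe sets near or below the limit, and the 1 that was called was above it on 1 array. In all, 3 of the 12 probe sets of a single gene were called by limma, all of them higher in resistant cells, where 4.42% of all probe sets were called higher and 7.41% in either direction. The same 3 probe sets had groups that did not overlap, against 8.5% of all probe sets. By an exact two-sided permutation test of the arrays, 5 of the 12 had an unadjusted p under 0.05, against 17.9% of all probe sets. Of the 12, 8 were above the limit on no array, against 25.8% of all probe sets. The median difference of the 12 was 0.19, beside 0.03 for all probe sets. Their count is small, and the 2 ITGA2B probe sets are annotated to the same target sequence.

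**Figure D1:**
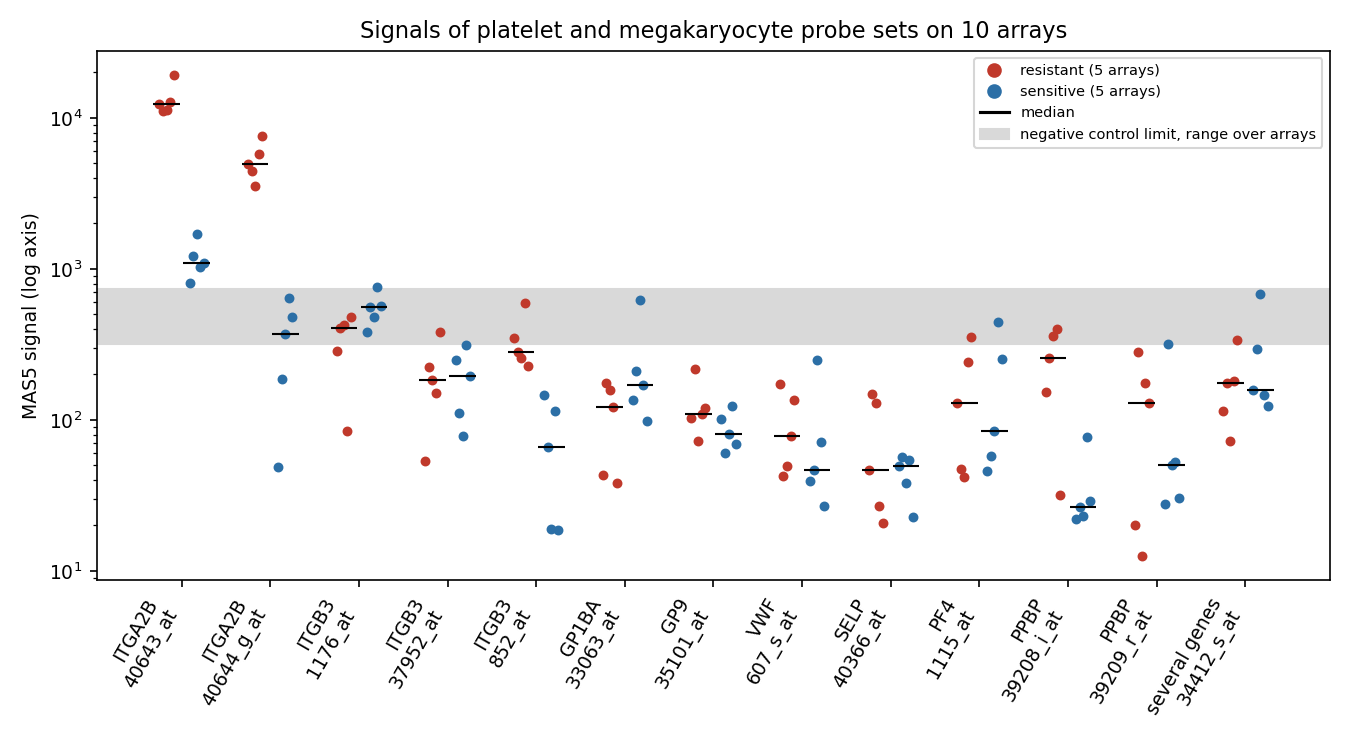
MAS5 signals (log axis) of the 13 probe sets, each point 1 array, resistant arrays left and sensitive arrays right, with group medians as bars; the grey band spans the lowest and highest background limit of the 10 arrays, 319.7 to 739.8. Only the ITGA2B probe sets have all 5 resistant arrays above the band, and 8 probe sets were above their own array's limit on no array.

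ITGA2B, on chromosome 17, encodes the alphaIIb chain of the fibrinogen receptor. Its brighter probe set, 40643_at, had signals of 12409, 11190, 11362, 12718 and 19302 on the resistant arrays, against 801.2, 1213, 1709, 1032 and 1090 on the sensitive arrays. Every resistant array lay above every sensitive array, and all 10 arrays were above their limit. The means were 13396 ± 3366 in resistant cells and 1169 ± 337 in sensitive cells (SD, n = 5 each), and the log2 difference was 3.40 (SE 0.23, 95% interval 2.91 to 3.90, adjusted p = 1.81e-06, limma). An exact two-sided permutation test of the arrays gave p = 0.00794, the smallest that 5 against 5 arrays allow. The resistant array at 19302 stands apart from the other 4, and without it the difference was 3.26 (adjusted p = 7.55e-06).

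The second ITGA2B probe set, 40644_g_at, had signals of 4927, 4467, 3546, 5800 and 7571 on the resistant arrays, against 48.5, 187.7, 371.0, 640.9 and 479.7 on the sensitive arrays. The groups were again apart, but only 2 of the 5 sensitive arrays lay above their limit, against 5 of 5 resistant arrays. Its log2 difference was 3.69 (SE 0.38, 95% interval 2.85 to 4.52, adjusted p = 6.71e-05, limma). Because of the dim sensitive signals its size depends on the offset, at 3.32 with double the offset and 4.32 with an offset of 1. Among the 12558 probe sets, counted from the largest rise, 40644_g_at ranked 29 and 40643_at ranked 40. Sensitive cells thus gave an ITGA2B signal above background in the brighter probe set, and resistant cells a higher one in both. In a bulk sample, more cells with a transcript and more transcript per cell cannot be told apart.

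The reference promoter of ITGA2B is shown because this is the member that rose, beside those of GP9 and PPBP, members that were above the limit on no array. RefSeq promoter sequences (GRCh38.p14) were found for 5 of the 9 genes, and 250 bases before the annotated start were searched. Capitals mark matches to the consensus site of GATA factors, which drive many megakaryocyte genes, spelled AGATAA, with T also allowed as its first letter and G also allowed as its last, on either strand. The ITGA2B window is chr17:44389650-44389899 on the minus strand, that of GP9 is chr3:129060529-129060778 on the plus strand, and that of PPBP is chr4:73988191-73988440 on the minus strand.
ITGA2B: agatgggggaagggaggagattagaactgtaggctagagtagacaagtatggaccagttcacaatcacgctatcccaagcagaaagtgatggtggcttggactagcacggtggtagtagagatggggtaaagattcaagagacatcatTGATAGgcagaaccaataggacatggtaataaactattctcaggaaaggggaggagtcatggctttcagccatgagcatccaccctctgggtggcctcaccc
GP9: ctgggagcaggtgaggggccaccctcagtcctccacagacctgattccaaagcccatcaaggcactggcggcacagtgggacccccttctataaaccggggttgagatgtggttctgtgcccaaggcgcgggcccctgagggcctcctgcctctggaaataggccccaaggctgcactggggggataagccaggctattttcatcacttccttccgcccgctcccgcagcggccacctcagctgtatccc
PPBP: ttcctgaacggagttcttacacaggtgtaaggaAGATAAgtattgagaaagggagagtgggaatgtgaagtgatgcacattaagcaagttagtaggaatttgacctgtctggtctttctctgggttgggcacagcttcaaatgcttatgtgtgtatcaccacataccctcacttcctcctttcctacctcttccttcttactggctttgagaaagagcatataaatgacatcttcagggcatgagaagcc
The ITGA2B window holds 1 match, TGATAG, at 102 to 97 bases before the start, and the PPBP window holds AGATAA at 217 to 212 bases before it. The GP9 window has no match, and GP1BB and SELP have 1 each. A match is thus found in 4 of the 5 windows and in 22.3% of the 35116 promoters of the table. It was therefore present in the window of a gene that rose and in that of a gene at background, and it is a description of the letters only.

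ITGB3, also on chromosome 17, encodes the beta3 chain, the only partner of alphaIIb. Its 3 probe sets did not move together. Probe set 852_at had signals of 350.5, 281.0, 258.2, 594.6 and 228.4 on the resistant arrays, against 147.0, 66.3, 19.0, 114.4 and 18.6 on the sensitive arrays. All resistant arrays were higher than all sensitive ones, yet only the array at 350.5 exceeded its own limit. The log2 difference was 1.29 (SE 0.26, 95% interval 0.71 to 1.86, adjusted p = 0.00979, limma; exact permutation p = 0.00794), and it was 2.59 with an offset of 1. With signals at the background in both groups, no fold is given.

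The brightest ITGB3 probe set, 1176_at, went the other way. It had signals of 286.6, 408.8, 427.8, 85.0 and 479.2 on the resistant arrays, none above the limit, against 382.1, 562.9, 480.8, 760.0 and 565.0 on the sensitive arrays, of which 4 were above it. The groups overlapped, and the difference of -0.63 was not called (95% interval -1.27 to 0.02, adjusted p = 0.298, limma; exact permutation p = 0.0476). The third, 37952_at, lay between 53.6 and 383.7 on resistant arrays and between 77.7 and 312.4 on sensitive arrays, with no array above the limit (difference 0.02, 95% interval -0.65 to 0.69). These probe sets disagree in sign, so no direction is given for ITGB3. Between ITGA2B and ITGB3 the gene table places 17 measured genes. Of the 10 measured genes nearest to ITGA2B, 5 on each side, limma called 0 (before adjustment 1 had p under 0.05 with a higher level and 1 with a lower one, where 11.0% of all genes had it higher and 8.44% lower), and their differences lay between -0.87 and 0.67.

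Of the receptor for von Willebrand factor, the member genes with a value of their own, GP1BA and GP9, were at background in both groups. GP1BA, its ligand-binding chain, had signals of 42.9, 176.3, 159.0, 122.6 and 38.4 on the resistant arrays, against 135.7, 210.3, 625.1, 169.8 and 97.8 on the sensitive arrays. The groups overlapped, no array was above its limit, and the difference was -0.60 (95% interval -1.33 to 0.13, adjusted p = 0.399, limma). GP9, the small chain that the complex needs to reach the surface, lay between 72.3 and 218.1 on resistant arrays and between 60.4 and 123.0 on sensitive arrays. Its difference was 0.23 (95% interval -0.19 to 0.65, adjusted p = 0.620, limma), again with no array above the limit. The probe set shared by GP1BB and other genes lay between 72.3 and 338.8 on resistant arrays and between 122.7 and 680.2 on sensitive arrays, with 1 sensitive array above the limit. GP5, a further subunit outside the 9 genes, had 2 probe sets, neither above the limit on any array (differences 0.40 and 0.49, adjusted p = 0.620 and 0.456, limma). Signals at this level do not show that a transcript is absent, since a dim probe set can also be a poor one.

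The granule and adhesion genes showed the same low level. VWF, the large adhesive protein that bridges platelets to collagen, had signals of 171.8, 42.5, 49.3, 78.2 and 136.0 on the resistant arrays, against 39.4, 46.5, 250.0, 71.8 and 26.9 on the sensitive arrays. SELP, which encodes P-selectin of the granule membrane, had 46.3, 147.7, 128.6, 26.8 and 20.7 on the resistant arrays, against 49.4, 56.9, 38.3, 54.5 and 22.9 on the sensitive arrays. The groups overlapped in both genes, and no array was above the limit in either. The differences were 0.12 for VWF (95% interval -0.50 to 0.74) and 0.19 for SELP (95% interval -0.29 to 0.68).

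Of the platelet chemokines, neither PF4 nor PPBP was called, and 1 of the 2 PPBP probe sets had a low p before adjustment only. PF4, which encodes platelet factor 4, had signals of 128.9, 47.3, 42.1, 240.5 and 354.9 on the resistant arrays, against 45.6, 57.7, 84.5, 446.4 and 253.4 on the sensitive arrays (difference -0.03, 95% interval -0.93 to 0.87, adjusted p = 0.987, limma). PPBP encodes the precursor of the neutrophil attractant CXCL7. Its probe set 39208_i_at had 152.6, 255.9, 360.7, 399.6 and 31.6 on the resistant arrays, against 22.1, 26.6, 23.2, 76.8 and 29.1 on the sensitive arrays. Of the resistant arrays 4 were higher than all sensitive arrays, and resistant replicate 5, at 31.6, fell within the sensitive range. The difference was 1.12 (95% interval 0.43 to 1.81) with an adjusted p of 0.0539 in limma and an exact permutation p of 0.0159, unadjusted. It was called under 2 of 18 alternatives, 1 of them without resistant replicate 5 (difference 1.40, adjusted p = 0.00422, limma). Under the other 16 it stayed uncalled. Over all 18 the difference went down to 0.76 and the adjusted p up to 0.122. The other probe set, 39209_r_at, gave a difference of 0.20 (adjusted p = 0.872), and neither was above the limit on any array.

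**Figure D2:**
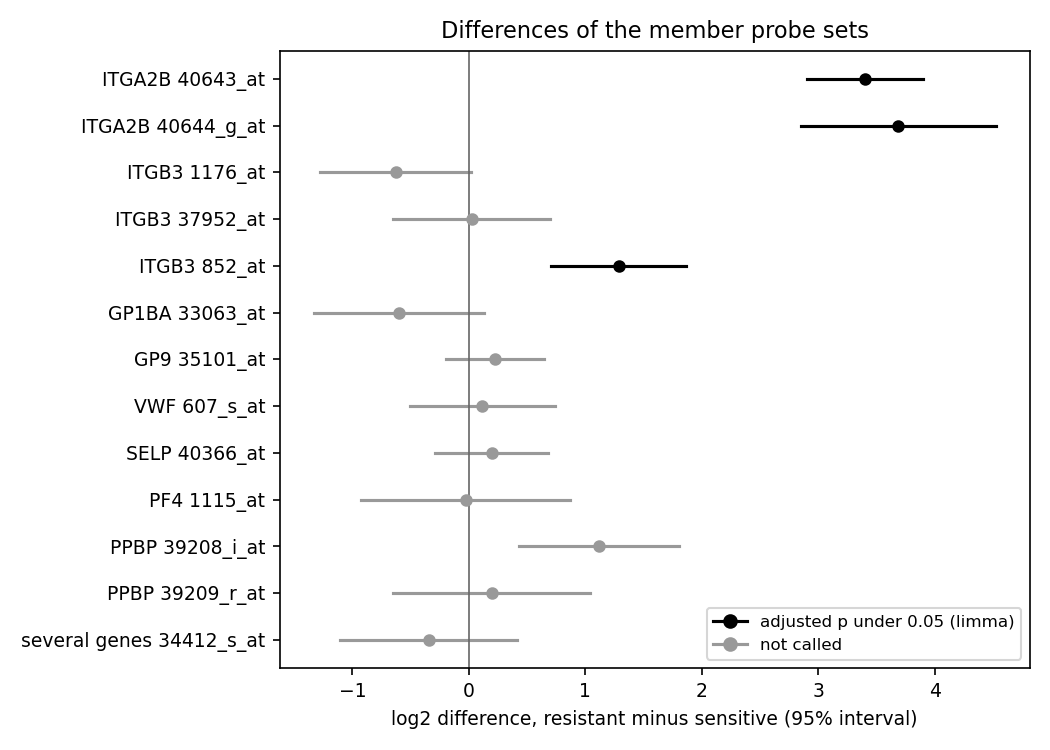
Log2 differences, resistant minus sensitive, of the 13 probe sets with their 95% intervals from limma; black marks an adjusted p under 0.05 and grey the rest. The ITGA2B differences of 3.40 and 3.69 stand to the right of all others, which lie between -0.63 and 1.29.

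The wider set of platelet genes was taken from 4 lists of 114 genes, of which 96 were measured, each by its brightest probe set. Of these, 21 rose (21.9%) and 8 fell (8.33%), where 4.94% of all 8226 genes rose and 3.46% fell. Some of the 96 were above the background limit on no array, as counted below for each list. Of all probe sets 25.8% were above it on no array, but a list counts only a gene's brightest probe set. The lists were drawn up with results of these data known, so their shares describe the lists and are not a test.

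Among platelet receptors and surface proteins 5 of 21 measured genes rose and 1 fell, beside 4.94% and 3.46% of all genes. The list's median difference was 0.31, beside 0.03 for all genes. Of the 21, 8 were above the limit on no array. TBXA2R, the receptor for thromboxane A2, a platelet agonist, had signals of 3822, 1885, 3437, 2509 and 2597 on the resistant arrays, against 409.9, 498.0, 422.7, 712.6 and 611.0 on the sensitive arrays. The groups were apart, with a difference of 2.18 (adjusted p = 6.71e-05, limma). ITGA5, the alpha chain of the fibronectin receptor, averaged 3701 ± 952 in resistant cells and 866 ± 186 in sensitive cells (SD, n = 5 each; difference 1.95, adjusted p = 0.000136). P2RX1, an ATP-gated channel of platelets, averaged 1441 ± 341 in resistant cells and 537 ± 252 in sensitive cells, with 3 of 5 sensitive arrays above the limit (difference 1.33, adjusted p = 0.0155). ITGA6, the alpha chain of the laminin receptor, fell. It lay between 77.9 and 484.5 on resistant arrays and at 600.0, 1160, 1191, 8696 and 9882 on sensitive arrays (difference -3.10, adjusted p = 0.0180, called in 1 of its 4 probe sets), with 1 resistant array above the limit. Sensitive replicates 4 and 5 gave the high signals, and without both the difference was -1.84 (adjusted p = 0.0219). ITGAV, the other alpha chain that pairs with beta3, has 3 probe sets, of which limma called 0, with 1 at an unadjusted p under 0.05. The brightest averaged 1102 ± 578 in resistant cells and 790 ± 295 in sensitive cells (difference 0.34, adjusted p = 0.736, limma). Probe set 39071_at, the one with the low p, went the other way, with 607 ± 71.2 in resistant cells and 956 ± 215 in sensitive cells, groups that did not overlap and a difference of -0.56 (adjusted p = 0.0982). No direction is therefore given for ITGAV.

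Among platelet granule proteins 5 of 24 measured genes rose and 1 fell, beside 4.94% and 3.46% of all genes, with a median difference of 0.09. Of the 24, 6 were above the limit on no array. MMRN1, counted among the 5, was one of them (adjusted p = 0.0390, limma). It lay between 75.3 and 426.0 on resistant arrays and between 32.0 and 94.0 on sensitive arrays. SPARC, a collagen-binding glycoprotein stored in alpha granules and also made by many other cells, had signals of 3720, 3623, 2632, 4902 and 2626 on the resistant arrays, against 42.3, 223.6, 95.1, 166.9 and 123.8 on the sensitive arrays. It was above the limit on all resistant arrays and on no sensitive array, which makes it at least 7.02-fold higher (adjusted p = 1.36e-06, limma). TIMP1, an inhibitor of matrix proteases, averaged 13118 ± 2924 in resistant cells and 3121 ± 715 in sensitive cells (SD, n = 5 each; difference 2.03, adjusted p = 0.000113). SLC18A2, the transporter that loads serotonin into dense granules, rose by 1.23 on the log2 scale (adjusted p = 0.00878), above the limit on all resistant arrays and 1 sensitive array. Its call was lost without sensitive replicates 4 and 5 together (0.96, adjusted p = 0.0530). SRGN, the proteoglycan core protein that holds PF4 in granules and is also abundant in granulocyte granules, fell to 4428 ± 1027 in resistant cells, against 20571 ± 8148 in sensitive cells (difference -2.14, adjusted p = 0.000487).

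All 19 measured transcription factors of the lineage were above the limit on at least 3 arrays of a group. Of these, 6 rose and 2 fell, beside 4.94% and 3.46% of all genes, with a median difference of 0.41. KLF1 is among the 6 and is counted again with the erythroid markers below. GATA1, the factor that megakaryocytes and red cells both require, was spread widely over the sensitive arrays and was not called. It had signals of 4661, 3009, 4505, 3548 and 3689 on the resistant arrays, against 430.6, 510.5, 968.0, 3800 and 3650 on the sensitive arrays. Sensitive replicates 4 and 5 thus lay within the resistant range of GATA1, while their ITGA2B signals of 1032 and 1090 lay far below the resistant arrays. The GATA1 difference was 1.49 (SE 0.53, adjusted p = 0.140, limma), without sensitive replicate 4 it was 1.86 and called (adjusted p = 0.0458), and without replicates 4 and 5 it was 2.46 (adjusted p = 0.000479). The part of GATA1 in the ITGA2B difference was not tested.

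NFE2, which drives platelet release, had 7981, 5622, 12086, 6559 and 7185 on the resistant arrays, against 1687, 1725, 5237, 3144 and 3859 on the sensitive arrays. The groups did not overlap, and the difference of 1.38 was called (adjusted p = 0.0228, limma). The call was lost without sensitive replicate 1 (0.0584), sensitive replicate 2 (0.0612), resistant replicate 1 (0.0541) or resistant replicate 3 (0.0554), given as adjusted p. FLI1, an ETS factor needed for late megakaryocyte genes such as GP9, was nearly level, at 1948 ± 283 in resistant cells and 1964 ± 273 in sensitive cells (SD, n = 5 each; difference -0.01, SE 0.18, adjusted p = 0.987). Of the 4 GATA2 probe sets limma called 0, with 0 at an unadjusted p under 0.05, and the brightest differed by 0.41 (adjusted p = 0.580). RUNX1 was not analysed here, as it had no probe set assigned to it alone.

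TAL1, a partner of the GATA factors, averaged 10285 ± 2805 in resistant cells and 2600 ± 1020 in sensitive cells (SD, n = 5 each; difference 1.98, adjusted p = 0.000741, limma). KLF1, known to turn the common precursor toward red cells and away from megakaryocytes, averaged 8548 ± 1224 in resistant cells and 1222 ± 758 in sensitive cells (difference 2.87, adjusted p = 0.000206). MECOM, a factor of stem cells and early megakaryocytes, was called in 2 of its 4 probe sets. Its brightest was at least 5.88-fold higher in resistant cells (adjusted p = 6.66e-05, limma). The other called one, above the limit on 1 sensitive array, differed by 1.90 (adjusted p = 0.00157, limma). The uncalled ones disagreed in sign, at 0.86 and -0.25 (adjusted p = 0.106 and 0.774, limma). LMO2, a bridging protein of the TAL1 and GATA complex, fell to 1498 ± 468 in resistant cells, against 6527 ± 2449 in sensitive cells (difference -2.01, adjusted p = 0.00111). TAL1 and LMO2 are parts of the same complex and moved in opposite directions.

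**Figure D3:**
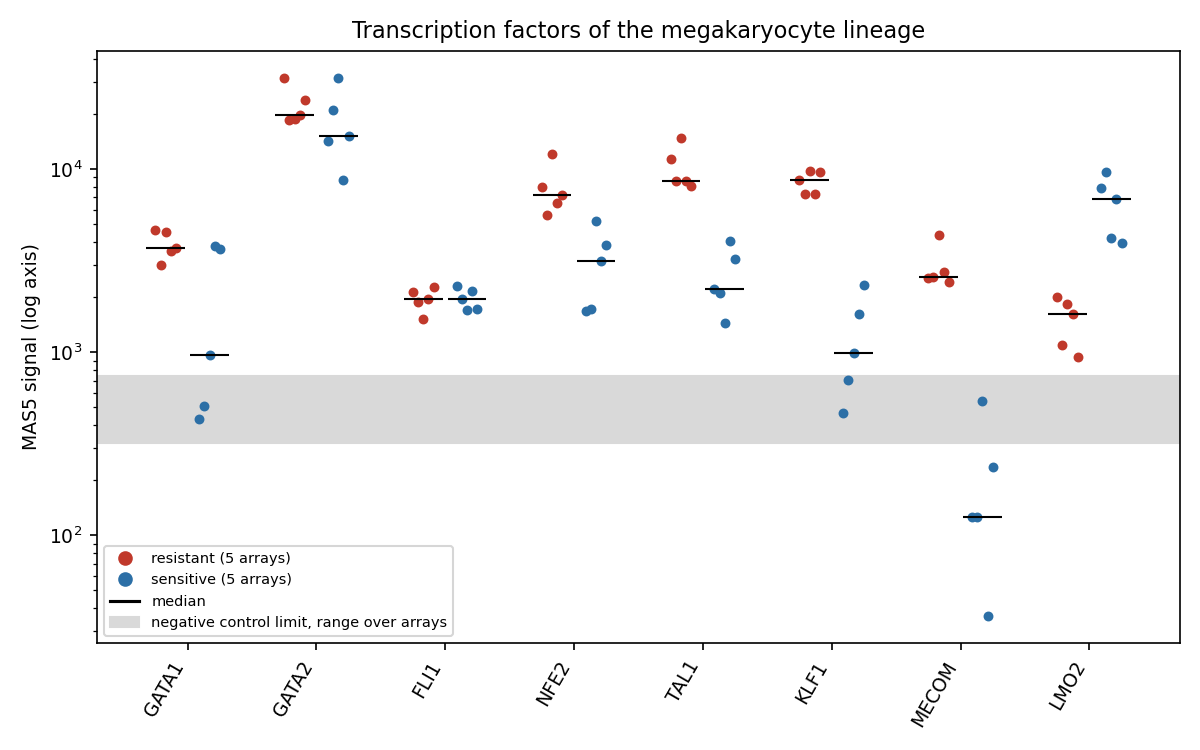
MAS5 signals (log axis) of 8 transcription factors, each point 1 array, resistant left and sensitive right, with medians as bars and the range of the background limit in grey. KLF1, TAL1, MECOM and NFE2 lie higher and LMO2 lower on all resistant arrays, FLI1 and GATA2 overlap, and the GATA1 signals of the sensitive arrays spread from 430.6 to 3800.

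Among signalling, enzyme and cytoskeletal genes of platelets 5 of 32 rose and 4 fell, beside 4.94% and 3.46% of all genes. The median difference was 0.23. Of the 32, 1 was above the limit on no array. The adaptors LAT and LCP2, which act downstream of the collagen receptor in platelets and of antigen receptors in lymphocytes, both rose. LAT had signals of 5592, 4142, 9397, 3944 and 4463 on the resistant arrays, against 210.8, 326.9, 235.1, 784.2 and 1009 on the sensitive arrays, of which 2 were above the limit (difference 3.27, adjusted p = 0.000155, limma). LCP2 averaged 10318 ± 2039 in resistant cells and 2288 ± 259 in sensitive cells (SD, n = 5 each; difference 2.11, adjusted p = 1.39e-05). SYK, the kinase that phosphorylates these adaptors, fell to 1959 ± 537 in resistant cells, against 7262 ± 800 in sensitive cells (difference -1.86, adjusted p = 8.82e-05, called in 3 of 3 probe sets). LYST, whose loss disturbs lysosomes and dense granules, was at least 4.10-fold lower in its brighter probe set (adjusted p = 0.000356, limma). Its other probe set was at least 1.10-fold lower (adjusted p = 0.00111, limma).

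Markers of other lineages were read beside these lists. Of 14 measured endothelial markers, among which VWF and SELP are counted, 4 rose and 0 fell (adjusted p between 1.58e-05 and 0.000856, limma). Over all genes 4.94% rose and 3.46% fell. ICAM2 and ENG, measured in both groups, rose by 2.26 and 1.75 on the log2 scale. NOS3 rose by 3.27 in its brighter probe set, which was above the limit on 1 sensitive array only. Its other probe set went the other way and was not called (-0.49, adjusted p = 0.437, limma). TEK, above the limit on 4 resistant arrays and no sensitive array, was at least 3.09-fold higher in its brighter probe set. The other TEK probe set was not called (1.24, adjusted p = 0.199, limma). At an unadjusted p under 0.05 the endothelial counts were 6 and 0 of 14, where 11.0% of all genes had it higher and 8.44% lower. The list's summed signal was 14178 to 21718 on resistant arrays and 4275 to 4926 on sensitive arrays. Such sums are weighted toward the brightest genes of a list. Here ICAM2 alone averaged 8690 ± 1817 in resistant cells and 1704 ± 274 in sensitive cells (SD, n = 5 each). CDH5, KDR, SELE, VWF and SELP were above the limit on no array, in any of their probe sets. Of the uncalled endothelial genes, FLT1 was above it on 2 resistant and 4 sensitive arrays in 1 of its 6 probe sets, TIE1 on 2 resistant arrays and 1 sensitive array, and PROCR, THBD and PECAM1 on 4, 2 and 1 resistant arrays and no sensitive array.

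Of 13 erythroid markers 4 rose and 0 fell (adjusted p between 0.000206 and 0.0174, limma), beside 4.94% and 3.46% of all genes. At an unadjusted p under 0.05 the counts were 5 and 0, beside 11.0% and 8.44% of all genes. KLF1 and BLVRB rose by 2.87 and 1.39 on the log2 scale. RHAG and HBD were above the limit on no sensitive array and were at least 1.96-fold and at least 1.20-fold higher, HBD with 2 resistant arrays above the limit. The call of HBD was lost without sensitive replicate 2 (adjusted p = 0.0508), and that of RHAG without sensitive replicates 4 and 5 together (adjusted p = 0.0589). Of the uncalled erythroid genes, ALAS2, TFRC and the brightest EPOR probe set were above the limit on all 5 arrays of each group. ANK1 was above it on 4 of each. The brighter HBB probe set was above it on 3 resistant arrays and 1 sensitive array, and HBZ on 1 and 3. HBE1 was above it on 2 resistant arrays only, SLC4A1 on 1 of each group, and EPB42 on no array. The erythroid sum was 49927 to 68462 on resistant arrays and 27286 to 50181 on sensitive arrays.

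Of 17 granulocytic markers 11 fell and 0 rose, with the same counts at an unadjusted p under 0.05. Over all genes 3.46% fell and 4.94% rose, and 8.44% and 11.0% did so at an unadjusted p under 0.05. By the fitted differences the first 4 were PRG2, PRTN3, MS4A3 and RNASE2 (adjusted p between 1.49e-07 and 3.00e-06). PRTN3 and MS4A3 were above the limit on no resistant array and were at least 56.9-fold and at least 44.0-fold lower. PRG2 and RNASE2, with differences of -8.26 and -5.90, were above it on 2 resistant arrays and 1 resistant array. The list was not uniform. CAMP was above the limit on 3 resistant and 2 sensitive arrays, MPO on 2 and 1, and LTF on 1 and 0. DEFA4 and LCN2 were above it on no array. The granulocytic sum was 3192 to 6617 on resistant arrays and 212977 to 506619 on sensitive arrays. PRG2 alone lay between 87498 and 231416 on the sensitive arrays, so this sum is weighted toward it. The part of these lineage markers in the ITGA2B difference was not tested.

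In several of the listed genes sensitive replicates 4 and 5 lay together and apart from replicates 1 to 3, as GATA1 and ITGA6 show above. The following were chosen after their values were seen. EPX, an eosinophil granule peroxidase, read 40734 and 38859 on sensitive replicates 4 and 5, against 3585 to 4885 on replicates 1 to 3, and CLC, the Charcot-Leyden crystal protein of eosinophils and basophils, read 41628 and 107507, against 3590 to 3860. CLU, a granule protein, read 5006 and 3963, against 266.8 to 954.6, and PTGS1, the enzyme that starts thromboxane synthesis, read 1413 and 1343, against 154.1 to 211.9. Over all probe sets these arrays did not stand apart, with a correlation of 0.950 between them and 0.925 to 0.951 with the other sensitive arrays. In ITGA2B 40643_at both lay within the range of the other 3, and without them its difference was 3.34 (adjusted p = 8.90e-05, limma). Without both arrays, 3 member probe sets and 30 listed genes were called. CLU and PTGS1 were not called with all arrays (adjusted p = 0.884 and 0.429, limma). Their differences without both arrays were 1.39 and 1.95 on the log2 scale. They were named for their high signals on these arrays, so this rise follows from the choice and is not a result. What the split stands for was not tested.

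**Figure D4:**
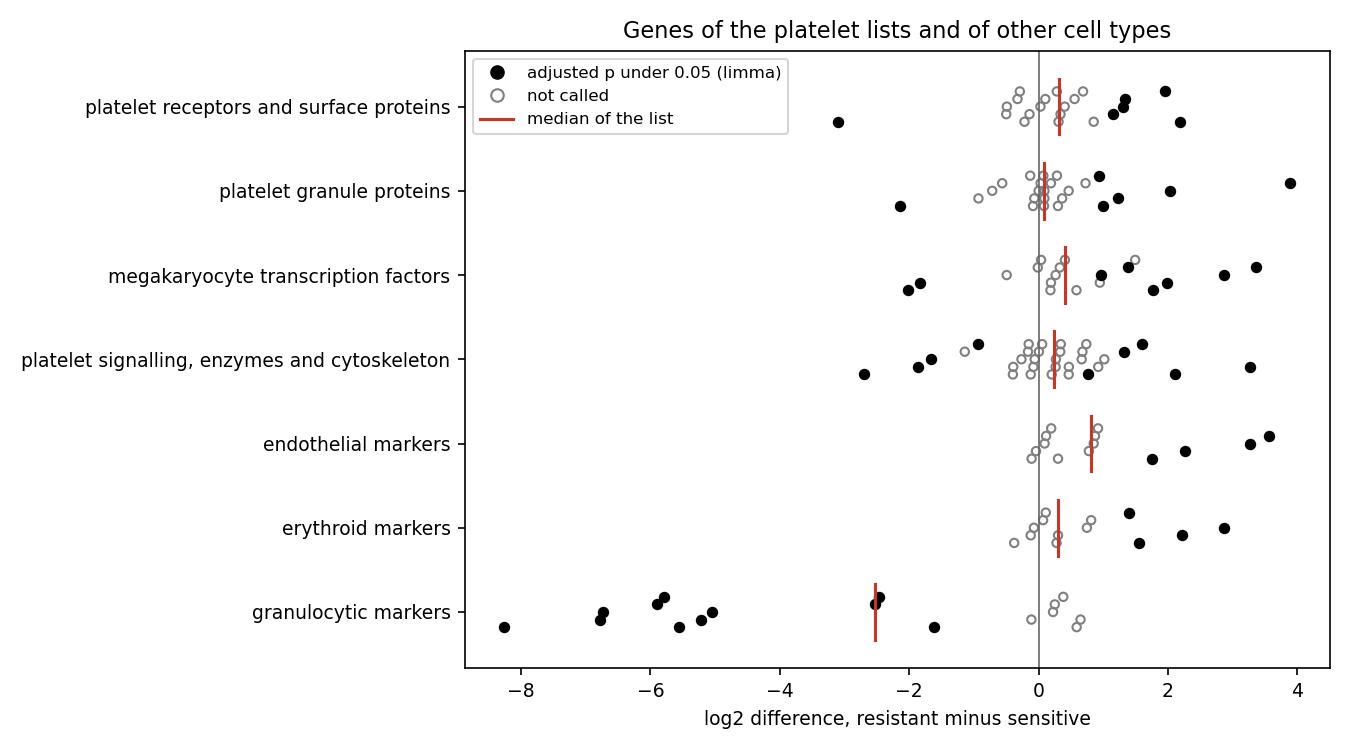
Log2 differences, resistant minus sensitive, of the measured genes of 4 platelet lists and 3 lists of other cell types, each point 1 gene; filled points were called by limma and red bars are list medians. The platelet lists hold calls on both sides with medians between 0.09 and 0.41, while 11 of 17 granulocytic genes were called lower; points of genes at background in 1 group are fitted values, not bounds.

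As a description of which genes ran most like ITGA2B, log2 profiles over the 10 arrays were set to 0 at the sensitive mean and compared by Euclidean distance. The nearest of 8225 genes were PDE4DIP, RAPGEF2, RAB31, IGSF3 and PDLIM1, at distances of 0.903, 1.41, 1.45, 1.46 and 1.49, where the median gene lay at 7.69. So measured, the distance depends mostly on the size of the group difference. The fitted differences of these genes were 3.21 to 3.57, beside 3.40 for ITGA2B. Their nearness thus describes a rise of similar size and does not show a shared pattern within the groups. RAPGEF2 and RAB31 were above the limit on all 10 arrays, with differences of 3.57 and 3.29. PDE4DIP, IGSF3 and PDLIM1 were above it on all resistant arrays and on no sensitive array, so their place in this order rests on sensitive signals at background, and they were at least 3.38-fold, 3.49-fold and 6.52-fold higher. None of the 5 is among the 9 platelet genes or the listed platelet genes.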

How the data were processed

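RNA of 5 resistant and 5 sensitive samples was measured on 1-colour Affymetrix arrays, and groups and replicate numbers were read from the sample titles. The authors deposited linear intensity values, 1 for each probe set and array. The submitters' processing notes name MAS5 with no version or settings. As deposited, the arrays' 2% trimmed means ranged from 2501.33 to 2501.51. After scaling to their mean, 67 of 12625 probe sets, the controls, were left out. Symbols came from the platform annotation, brought up to date through Entrez identifiers and the GRCh38.p14 gene table: 10943 probe sets had 1 symbol, 545 several and 1070 none. The intensity was analysed as log2(signal + 114.8), the offset being the 20th percentile of all signals, in limma 3.58.1 (R 4.3.3; lmFit, then eBayes) with no covariate. Recovery of known changes was tested on simulated data. In lists, a gene's brightest probe set by mean log2 signal stood for it. A gene not above the limit on any array of 1 group is given as "at least N-fold", from the mean log2 signals with the dim group set to the limit where it was lower. The number of arrays limits the precision.

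The members, the lists and the background limit were chosen with earlier results of these data known. Named beside the members were up to 4 called genes of each list with the largest differences, and GP5, GATA1, GATA2, FLI1, NFE2, RUNX1 and ITGAV whatever their result; 1 further gene is not reported here. The neighbours of ITGA2B and the promoter motif were added after its values were seen. MMRN1 was named because it was called with signals at background. Alternatives were other scalings, offsets, a filter, a variance trend, a replicate block, each array left out and, added after seeing the data, sensitive replicates 4 and 5 left out together.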

Additional observations from a re-analysis of the deposited data

Results flagged for a closer look

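In a group of 5 arrays, chance sets 1 array apart by the measure used in about 1 of 20 groups, and here 8 of 90 groups had such an array (its gap to the next array over the range of the group, on the log2 scale, exceeded Dixon's critical value). The ITGA2B probe set 40643_at read 19302.1 on resistant replicate 5, where the other resistant arrays lay between 11190 and 12718. Both PPBP probe sets had a high sensitive array below the background limit, 76.8 on replicate 4 in 39208_i_at and 318.2 on replicate 2 in 39209_r_at. GP5 read 421.5 on resistant replicate 3, also below the limit of that array, with the others at 61.5 or less. Resistant replicate 3 was also the highest in MECOM, at 4369.4, and the lowest in SRGN, at 2695.5. BLVRB read 6636.0 on resistant replicate 5, and RHAG read 566.7 on sensitive replicate 3, where the other sensitive arrays were at 102.3 or less.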

How the results depend on the processing

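The calls of both ITGA2B probe sets were kept under all 19 alternatives, with log2 differences of 3.26 to 3.54 for 40643_at and 3.32 to 4.32 for 40644_g_at, and that of ITGB3 852_at under the 18 that could test it, at 0.91 to 2.59. Of the 12 member probe sets, 3 were called, 2 to 4 under other limma settings, 3 to 4 with 1 array left out, and 5 had an exact permutation p under 0.05, unadjusted. By brightest probe set 1 member gene was called, and 2 with an intensity trend in the variance, the added one being PPBP (adjusted p = 0.0448); with 1 array left out it was 1 to 2. The difference of ITGB3 37952_at, near 0, turned to -0.074 with arrays scaled to a common median, -0.082 with quantile normalization and -0.0034 with an offset of 1, and lay between -0.17 and 0.23 with 1 array left out. With 1 array left out the uncalled differences of PF4 (-0.25 to 0.25), VWF (-0.0061 to 0.35), PPBP 39209_r_at (-0.022 to 0.49) and FLI1 (-0.067 to 0.069) also changed sign. Without sensitive replicates 4 and 5 together, an alternative chosen after seeing the data, 788 probe sets were called, the uncalled differences of VWF and PF4 were -0.028 and 0.52, the call of ITGA2B was kept in both probe sets, and among the named genes RHAG and SLC18A2 lost theirs and GATA1 gained one. The groups share replicate numbers, and the labels do not say whether these pair the samples. Correlations of same-numbered arrays' deviations from the group means were 0.009 to 0.123, with 1 of 5 above 0.1. Of the 5 resistant arrays, 1 correlated best with its own number. With so few arrays these values cannot decide whether the samples were paired. With the replicate number as a block, 3 member probe sets and 23 listed genes were called, against 29 without it, and 794 probe sets, against 931; among the named genes the block ended the call of ITGA6 (adjusted p = 0.0659) and no other. Over all alternatives, 23 to 32 listed genes and 691 to 1151 probe sets were called. Signal over background limits what can be shown: 6 of the 8 measured member genes were above the limit on no array.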
